A study of Homo sapiens with 3 samples.

Results

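The genes described here encode receptors and ligands of the platelet-derived growth factor (PDGF) and fibroblast growth factor (FGF) families: PDGFRL, PDGFRA, PDGFRB, PDGFA, PDGFC, FGF2, FGFR1, FGFR2, FGFR3 and FGFR4. They were selected on measured values of these same arrays, namely the log2 ratio of each G9a shRNA array to the control array together with detection against the median of all values, so what follows is a description and no test was made on them. They are 10 of 19775 genes with a probe set of their own, and 36 of 41097 probe sets that the array annotation gives to a single gene symbol. Of these genes, only PDGFRL was more than 2-fold below the control under both G9a shRNAs, judged at the brightest probe set (the highest mean log2 signal over the arrays), FGFR2 was more than 2-fold lower with G9a shRNA1 alone, and PDGFRA and PDGFRB were not measured above the median signal on any array.

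SKOV-3 is a human ovarian cancer cell line. Cells carrying G9a shRNA1, cells carrying G9a shRNA2 and control cells carrying an shRNA against luciferase (Luc shRNA) were compared, to ask which genes depend on G9a, a histone methyltransferase that places methyl groups on lysine 9 of histone H3 and is encoded by EHMT2. The shRNAs were carried in by lentivirus. Per the methods, cells with stable knockdown were selected with puromycin, and selection of the control cells is not described separately. The arrays therefore show the state of stably depleted cells in culture in a single cell line. Total RNA of each condition was hybridised to 1 Affymetrix array, 3 arrays in all, with no replicate. The number of arrays therefore limits the precision, both comparisons share the Luc shRNA array, and in bulk RNA a smaller number of expressing cells and less RNA per cell cannot be told apart.

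EHMT2 read 182 in Luc shRNA cells, 29.7 in G9a shRNA1 cells and 79.2 in G9a shRNA2 cells at its brightest probe set, log2 fold changes of -2.62 and -1.20. Its second kept probe set read 27.6, 23.9 and 16.4, or -0.21 and -0.75, a smaller difference with the order of the shRNAs turned round, and a further one had a highest signal of 8.49 and was not kept. Signals here are linear MAS5 values, 3 signals in a row are in the order Luc shRNA, G9a shRNA1, G9a shRNA2, and a pair of log2 fold changes has G9a shRNA1 first. Probe sets whose highest signal on the 3 arrays was at or over the median of all values, 11.96, were kept, and values past the 75th percentile, 89.7, were treated as the more precise class. The log2 difference between both G9a shRNA arrays had a standard deviation (SD) of 0.25 in that class, of 0.86 in the class from the median up to it and of 1.77 among probe sets under the median. That spread also holds real differences between the shRNAs. It is not a replicate error, and it does not measure a spread against the Luc shRNA array. The median log2 fold change of the kept genes was 0.00 with G9a shRNA1 and 0.12 with G9a shRNA2 as deposited, and 0.01 and 0.01 after quantile normalization, so a value near 0.12 with G9a shRNA2 lies at the middle of the array. The ratio of the 3′ to the 5′ probe set of ACTB, a sign of RNA integrity, was 3.68 in Luc shRNA cells, 1.83 in G9a shRNA1 cells and 1.47 in G9a shRNA2 cells, whereas that of GAPDH lay between 1.12 and 1.15, and the part of this difference in the results was not tested.

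PDGF ligands are secreted dimers that bring together the receptor tyrosine kinases PDGFRα and PDGFRβ, which in most tissues are carried by fibroblasts, pericytes and other mesenchymal cells rather than by epithelium. FGF ligands bind FGFR1 to FGFR4 together with heparan sulfate chains on cell-surface proteoglycans, and the activated receptors recruit adaptors that lead to the RAS and ERK pathway, to PI3-kinase and to phospholipase C. ERK signaling in turn switches on its own inhibitors, among them the Sprouty proteins and the phosphatase DUSP6.

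Epithelial and other markers were read to check the label of the cells. Of 12 markers of ovarian carcinoma epithelium, 11 were kept and MUC16 was not, with a summed signal of 11082 in Luc shRNA cells, 10548 in G9a shRNA1 cells and 12968 in G9a shRNA2 cells. Of the 11, 8 were on the higher side of the control with both shRNAs and 2 on the lower side, with a median log2 fold change of 0.44 over all 12, and CD24 was on the lower side at 3367, 1306 and 2229. No share over all kept genes was computed for such counts of sides. KRT19 was the only marker of that list past 2-fold with both shRNAs, at 13.4, 49.9 and 48.2. CDH1 and EPCAM on that list were reported by the study as higher in SKOV-3 cells after G9a depletion, with earlier work on both cited. Here CDH1 gave 0.41 and 0.89, short of 2-fold, and EPCAM gave 1.06 and 0.98. Of 12 fibroblast and pericyte markers, 7 were kept, 4 on the lower side with both shRNAs and 3 on the higher side, while LUM, COL3A1, FAP, CSPG4 and NOTCH3 stayed under the median. The 7 kept summed to 329, 168 and 188, and without COL1A1, left out after its values were seen, the other 6 summed to 129, 113 and 129. On that list COL1A1 was more than 2-fold lower with both shRNAs and RGS5, a pericyte gene, higher at its brightest probe set (1.44 and 1.11), whereas another kept RGS5 probe set gave -0.79 and -1.11. Among the endothelial genes PECAM1 alone of 7 was kept, at a signal of 15.4, 29.9 and 28.5. Of 6 leukocyte markers measured, ITGAM and CD79A were kept, with sums of 64.4, 48.9 and 50.2, and PTPRC, CD14, LYZ and CD3E were under the median.

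Over all 22 kept probe sets of the PDGF and FGF genes, 4 were more than 2-fold lower with G9a shRNA1, where 5.36% of all kept probe sets were, and 2 were with G9a shRNA2, against 4.44%. None was more than 2-fold higher with G9a shRNA1 or with G9a shRNA2, against 5.85% and 5.71%. Both shRNAs gave more than 2-fold lower signals at 2 probe sets, 1 of PDGFRL and 1 of FGFR4, beside 1.79% of kept probe sets, and none was that much higher with both, beside 3.32%. Counted by the brightest probe set of each gene, 1 of 8 kept genes was lower with both and 0 were higher, beside 1.66% and 2.57% of all kept genes. These shares stand beside counts that the choice of genes already used, and nothing is read from them. Of the 22, 11 lay within 1.5-fold of the control with both shRNAs, 8 were on the lower side with both, 7 on the higher side with both and 7 had opposite signs. The log2 fold change with G9a shRNA1 was below that with G9a shRNA2 in 18 and above it in 4. Over all kept genes the medians were 0.00 and 0.12 as deposited, an offset in the same direction. The 22 also hold several probe sets of the same gene. Shares over all kept probe sets were not computed for these counts of sides, and nothing is read from them. The 14 probe sets that were not kept belonged to PDGFRA, PDGFRB, FGFR2, FGFR3 and FGFR4. The kept probe set nearest to the threshold was FGFR2 211401_s_at, with a highest signal of 18.7, and the nearest one left out was FGFR2 208229_at, with 11.2. The median over the 8 kept genes of the mean log2 fold change was -0.23, beside 0.05 for all kept genes. Over all 10 genes, with PDGFRA and PDGFRB and their unreliable ratios included, it was 0.012, beside 0.038 for all genes measured, and -0.071 after median centring and -0.065 after quantile normalization.

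**Figure D1:**
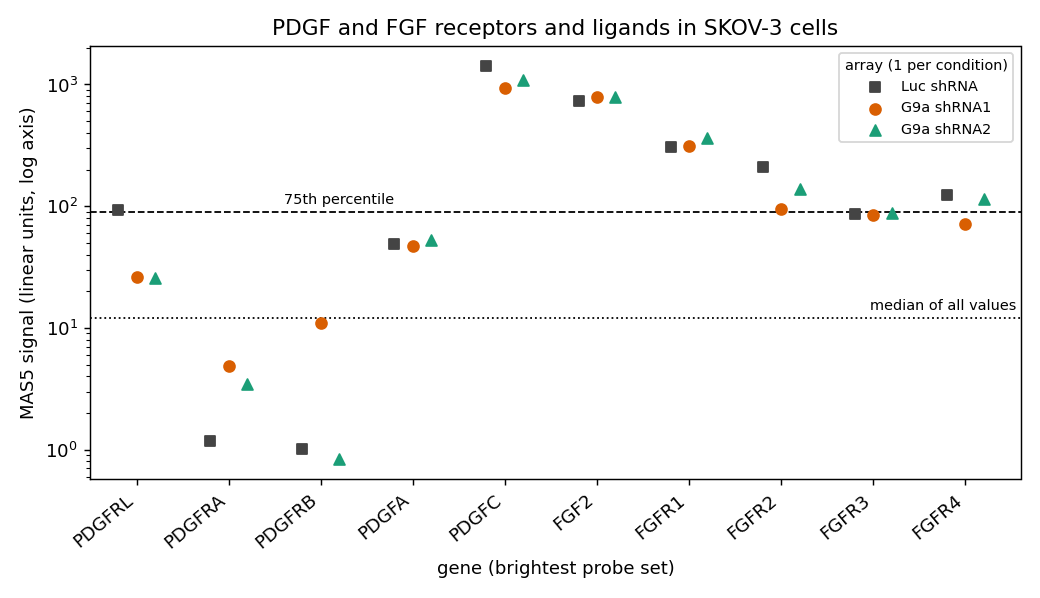
MAS5 signal (linear units on a log axis) of the brightest probe set of each PDGF and FGF gene on the Luc shRNA (squares), G9a shRNA1 (circles) and G9a shRNA2 (triangles) arrays, 1 array each, with the median (11.96, dotted) and the 75th percentile (89.7, dashed) of all values. PDGFRL reads 92.8, 26.2 and 25.5, FGFR2 212, 94.0 and 139, and PDGFRA and PDGFRB lie under the median on all 3 arrays.

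PDGFRL encodes a secreted PDGF receptor-like protein that has immunoglobulin domains and no kinase. Its single probe set read 92.8 in Luc shRNA cells, 26.2 in G9a shRNA1 cells and 25.5 in G9a shRNA2 cells. The control array thus stood apart from both depleted lines, which were nearly equal. The log2 fold changes were -1.83 and -1.86, that is 3.55-fold and 3.63-fold lower, and they were -1.88 and -1.97 after quantile normalization. Only the control signal lay past the 75th percentile, and it did so narrowly.

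Among 8347 genes with a signal past the 75th percentile, the genes whose pair of log2 fold changes lay nearest to that of PDGFRL were COL1A1, PDE7B and PCLO, at distances of 0.0999, 0.162 and 0.265 on the log2 scale. This likeness rests on 2 ratios from 3 arrays. COL1A1, a chain of type I collagen, gave 200.1 in Luc shRNA cells, 55.2 in G9a shRNA1 cells and 58.8 in G9a shRNA2 cells, although its other kept probe sets gave log2 fold changes of -0.70 and -0.13 and of -1.58 and -0.64. PDE7B, a phosphodiesterase that breaks down cyclic AMP, gave 140.6, 44.0 and 40.4. PCLO, a presynaptic scaffold protein, gave 153, 39.5 and 49.5. COL1A1 is also on the list of fibroblast and pericyte markers. The other 6 kept markers of that list went both ways. DCN, ACTA2 and ANPEP were below the control with both shRNAs, and COL1A2, THY1 and RGS5 above it. Their sum of 129, 113 and 129 was formed after the COL1A1 values were seen and hides these opposite directions, so nothing is read from it.

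PDGFRA and PDGFRB encode the kinase receptors that PDGF ligands bind. PDGFRA was covered by 4 probe sets, and its brightest read 1.18 in Luc shRNA cells, 4.82 in G9a shRNA1 cells and 3.44 in G9a shRNA2 cells. All 4 stayed under the median of 11.96 on every array, where 49.7% of probe sets differed by more than 2-fold between both G9a shRNA arrays. For PDGFRB the single probe set read 1.002, 11.1 and 0.839, all under the median as well. No fold change is given for these genes, since signals that low carry no reliable ratio, and a low probe set signal does not show that the transcript is missing.

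PDGFA and PDGFC are ligands, and both bind PDGFRα. At its brightest probe set (216867_s_at) PDGFA gave 48.9 in Luc shRNA cells, 47.1 in G9a shRNA1 cells and 53.0 in G9a shRNA2 cells, log2 fold changes of -0.05 and 0.12. The second (205463_s_at) gave 52.0, 38.5 and 59.5, or -0.43 and 0.19. Both lay below the control with G9a shRNA1 and above it with G9a shRNA2, although the higher value at the brightest probe set was -0.03 after median centring and -0.0031 after quantile normalization. G9a shRNA1 minus G9a shRNA2 was -0.17 at the brightest and -0.63 at the second probe set. Both were within the SD of 0.86 for that difference at this signal level, which does not measure a spread against the control.

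PDGFC, which has to be cut by a protease before it can bind, gave at its brighter probe set (218718_at) a signal of 1429.7 in Luc shRNA cells, 930.2 in G9a shRNA1 cells and 1097 in G9a shRNA2 cells. The log2 fold changes there were -0.62 and -0.38, both below the control and short of 2-fold. At 222719_s_at the signals were 85.3, 70.4 and 105, with log2 fold changes of -0.28 and 0.29. The probe sets thus differed in sign with G9a shRNA2.

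FGF2, a ligand that lacks a classical secretion signal and leaves the cell by another route, was strongly detected at both of its probe sets. At 204422_s_at the signal was 730.4 in Luc shRNA cells, 783 in G9a shRNA1 cells and 789.6 in G9a shRNA2 cells. The 3 arrays lay close together, with log2 fold changes of 0.10 and 0.11, of which the second became -0.04 after median centring and 0.01 after quantile normalization. At 204421_s_at the signals were 470.4, 479 and 572, log2 fold changes of 0.03 and 0.28.

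FGFR1 to FGFR4 encode the FGF receptor tyrosine kinases. FGFR1, whose product is the FGF receptor most often found in mesenchymal cells, was covered by 7 probe sets, all kept. Its brightest (226705_at) gave 306 in Luc shRNA cells, 311 in G9a shRNA1 cells and 363 in G9a shRNA2 cells, and the next (211535_s_at) gave 292, 268 and 321. Their log2 fold changes, 0.02 and 0.25 for the first and -0.12 and 0.13 for the second, put FGFR1 close to the control with both shRNAs. The 5 dimmer probe sets had log2 fold changes from -0.13 to 0.77 with G9a shRNA1 and from -0.01 to 0.63 with G9a shRNA2. Of these, 210973_s_at was higher with both, at 41.5, 66.2 and 64.4, or 0.67 and 0.63, short of 2-fold. The 2 depleted lines nearly coincided there. The spread between the G9a shRNA arrays at that signal level does not measure a spread against the control. The dimmer set includes 207937_x_at and 215404_x_at, whose suffix marks probes that may also match other transcripts.

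FGFR2, known in epithelia for a splice form that answers FGFs made by the surrounding stroma, was lower at its bright probe sets. Its brightest (203638_s_at) gave 212 in Luc shRNA cells, 94.0 in G9a shRNA1 cells and 139 in G9a shRNA2 cells, a 2.25-fold and a 1.52-fold lower signal. The second (208228_s_at) gave 139, 59.5 and 103. Both depleted lines were below the control at both of these, and G9a shRNA1 further than G9a shRNA2, with log2 fold changes of -1.17 and -0.60 at the first and -1.23 and -0.43 at the second.

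The other kept FGFR2 probe sets were dim. At 203639_s_at the signals were 18.0, 10.1 and 25.1, log2 fold changes of -0.83 and 0.48, and at 211401_s_at they were 18.5, 11.1 and 18.7, or -0.73 and 0.02. All 4 kept FGFR2 probe sets were thus below the control with G9a shRNA1, and 2 of the 4 were below it with G9a shRNA2. The remaining 7 FGFR2 probe sets had highest signals from 1.05 to 11.2 and were not kept.

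FGFR3, a receptor prominent in cartilage and urothelium, was kept at 1 of its 2 probe sets. That probe set (204379_s_at) gave 87.0 in Luc shRNA cells, 85.4 in G9a shRNA1 cells and 87.7 in G9a shRNA2 cells. The 3 signals were nearly equal, with log2 fold changes of -0.03 and 0.01, or a mean of -0.09 after median centring or quantile normalization. At the other (204380_s_at) the highest signal was 3.55.

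FGFR4, the receptor that with β-klotho takes up the FGF signal from the gut in liver, differed between its probe sets. Its brightest (204579_at) gave 124 in Luc shRNA cells, 71.3 in G9a shRNA1 cells and 116 in G9a shRNA2 cells, log2 fold changes of -0.80 and -0.10. At 211237_s_at the signals were 35.0, 24.2 and 24.3, or -0.53 with each shRNA. The probe set 1554962_a_at gave 20.0, 3.35 and 3.51, or -2.57 and -2.51. All 3 were below the control with both shRNAs, but by unlike amounts. The last difference rests on G9a signals under the median, and it was -0.74 and -0.74 once values under the median were raised to it as a floor. A further probe set, 1554961_at, had a highest signal of 7.80.

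Because G9a acts on chromatin, the sequence just ahead of the transcription start is shown for 3 genes as examples of the patterns above: FGFR2, lower at its bright probe sets, FGF2, strongly detected and close to the control, and PDGFRB, under the median on all arrays. For FGFR2 the window with the most CpG is shown. Other genes with the same patterns can differ in CpG number, as the counts below show. Each is the window of 250 bases before a RefSeq start in GRCh38.p14, read 5′ to 3′ on the gene's strand. Capitals mark CpG dinucleotides, the letters CG, which read the same on both strands. The windows are chr10:121598445-121598694 on the minus strand, chr4:122826581-122826830 on the plus strand and chr5:150155846-150156095 on the minus strand.
FGFR2: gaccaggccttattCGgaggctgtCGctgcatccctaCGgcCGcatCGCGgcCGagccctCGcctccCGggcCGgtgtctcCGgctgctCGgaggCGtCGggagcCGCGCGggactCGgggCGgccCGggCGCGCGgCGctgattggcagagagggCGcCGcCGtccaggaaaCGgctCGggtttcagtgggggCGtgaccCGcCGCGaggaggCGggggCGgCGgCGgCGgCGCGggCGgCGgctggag
FGF2: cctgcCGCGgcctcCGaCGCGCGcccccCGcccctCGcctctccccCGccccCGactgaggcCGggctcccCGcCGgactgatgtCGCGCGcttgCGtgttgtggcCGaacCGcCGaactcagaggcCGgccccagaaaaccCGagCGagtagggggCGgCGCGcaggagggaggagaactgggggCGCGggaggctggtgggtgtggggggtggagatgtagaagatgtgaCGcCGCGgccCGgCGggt
PDGFRB: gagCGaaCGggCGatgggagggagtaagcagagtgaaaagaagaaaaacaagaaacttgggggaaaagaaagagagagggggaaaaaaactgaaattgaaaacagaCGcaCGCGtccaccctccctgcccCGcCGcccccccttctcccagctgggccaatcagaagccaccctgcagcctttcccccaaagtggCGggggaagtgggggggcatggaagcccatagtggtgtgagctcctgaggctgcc
The FGFR2 window holds 42 CpG, a number reached by 1.38% of the 35116 windows in the RefSeq table, whose median was 11. The FGF2 window holds 33, reached by 8.15%, and the PDGFRB window 9, reached by 54.1%. FGFR2 has 4 further starts with 3 to 7 CpG each, and the arrays do not tell which start was used. In all, 7 of the 10 genes were matched to 16 windows that could be read, and across the others of these FGFR3 had 40 CpG, FGFR4 had 24 and 2, PDGFRA had 8 and 25, and PDGFA had 17 to 40. CpG number is a property of the sequence. Neither DNA methylation nor histone marks were measured on these arrays.

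The remaining genes of the PDGF and FGF pathways were read from lists ordered by role, each gene by its brightest probe set. Counts are set beside the 1.66% of kept genes that were more than 2-fold lower with both shRNAs and the 2.57% that were higher, and medians are over the measured genes of a list, beside 0.04 for all genes.

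Of 6 other ligands of the PDGF and VEGF families measured, all were kept and 0 were past 2-fold with both shRNAs in either direction, with a median of -0.24. VEGFA, the main angiogenic ligand, gave 761 in Luc shRNA cells, 854 in G9a shRNA1 cells and 964 in G9a shRNA2 cells, or 0.17 and 0.34. Below the control were VEGFC, a lymphatic growth factor, at -0.57 and -0.34, VEGFB at -0.62 and -0.13 and PGF at -0.19 and -0.54. The PDGF genes of the list had opposite signs with the 2 shRNAs. PDGFB gave 32.8, 45.0 and 20.2, or 0.46 and -0.70, and PDGFD gave -0.12 and 0.28 from signals near the median. VEGFD was not analysed here.

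Receptors related to the PDGF receptors, with their co-receptors, gave 2 of 5 kept genes more than 2-fold lower with both shRNAs and 0 higher, a median of -0.84 over 8 measured genes and -0.53 over the kept ones. The median over all 8 was -0.11 with values under the median signal raised to it, since CSF1R, FLT3 and KDR were not kept. KIT, the receptor for stem cell factor, gave 46.1 in Luc shRNA cells, 14.2 in G9a shRNA1 cells and 17.0 in G9a shRNA2 cells, or -1.70 and -1.44. NRP1, a co-receptor for VEGF and semaphorins, gave 292, 67.8 and 143, or -2.11 and -1.03, and its second kept probe set gave 32.6, 2.45 and 10.5. Both depleted lines lay below the control for KIT and for NRP1, and NRP1 was lower with G9a shRNA1 than with G9a shRNA2. NRP2, the other neuropilin, gave -0.44 and -0.63 and FLT4, the lymphatic VEGF receptor, -0.24 and -0.19. FLT1, a VEGF receptor, gave 0.74 and 0.96 from signals near the median, which became 0.00 and 0.01 with the floor.

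Of 21 other genes of the FGF family, 8 were kept, 1 lay more than 2-fold below the control with both shRNAs and 1 more than 2-fold above it. FGF5, a ligand that limits hair growth, gave 14.8 in Luc shRNA cells, 1.32 in G9a shRNA1 cells and 3.74 in G9a shRNA2 cells, while FGF13, an FGF-like protein that stays inside the cell, gave 3.12, 12.9 and 6.47. Both rested on signals around the median: with the floor the log2 fold changes were -0.31 and -0.31 for FGF5 and 0.11 and 0.00 for FGF13. The same held for FGF4 at 1.29 and 0.92, FGF1 at 0.91 and 1.04, FGF22 at 1.35 and 0.57 and FGF11 at -1.25 and -0.66, none of which reached a signal past the 75th percentile. FGF18 did reach it, at 170 in Luc shRNA cells, 167 in G9a shRNA1 cells and 203 in G9a shRNA2 cells, or -0.03 and 0.25. The list had a median of 0.30, which was 0 with the floor.

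FGF co-receptors and binding proteins gave 2 of 14 kept genes lower with both shRNAs and 1 higher, with a median of -0.36 over 21 measured genes, or 0 with the floor. SDC2, a heparan sulfate proteoglycan of the cell surface, gave 1299.6 in Luc shRNA cells, 512 in G9a shRNA1 cells and 620.5 in G9a shRNA2 cells, or -1.34 and -1.07. Its other probe sets also lay below the control with both, at -0.83 and -0.42 and at -0.85 and -0.74, short of 2-fold. SDC4, a related syndecan, lay on the other side, at 1001, 1332 and 1678, or 0.41 and 0.74. FLRT2, a membrane protein that binds FGF receptors, gave 17.4, 2.64 and 8.15, which with the floor was -0.54 with each shRNA. FLRT3, a member of the same family, gave 10.5, 36.5 and 31.7, log2 fold changes of 1.80 and 1.59 that were 1.61 and 1.41 with the floor. Its second probe set was also higher, at 0.84 and 1.06. The glypican GPC6 gave -0.98 and -0.83, the syndecan SDC3 -0.85 and -0.48 and the adhesion molecule NCAM1 -0.49 and -0.74. GPC6 and NCAM1 had G9a shRNA signals under the median, and with the floor they were at -0.44 and -0.44 and at -0.39 and -0.39.

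**Figure D2:**
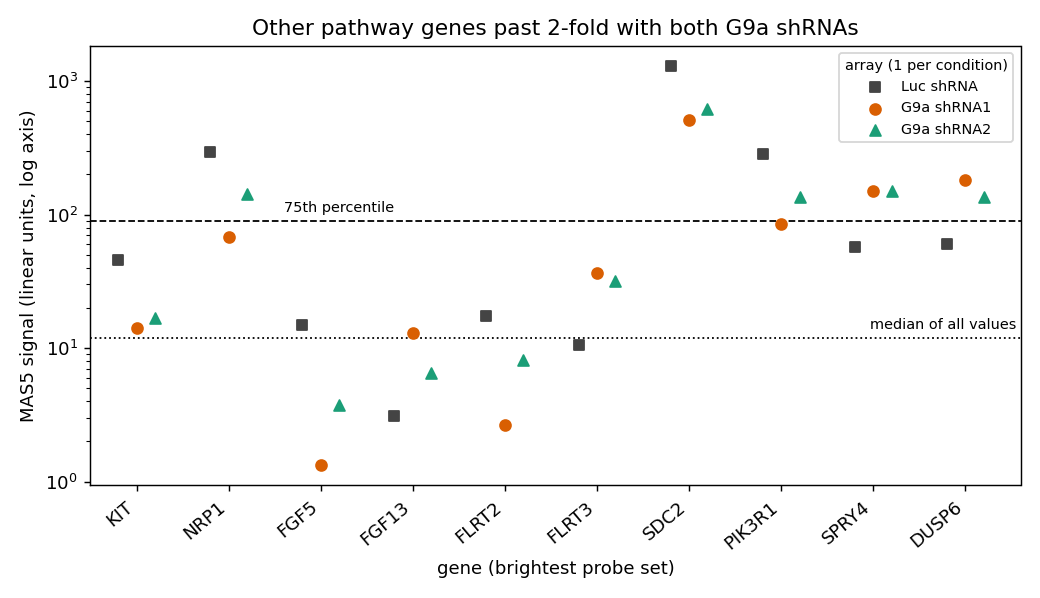
MAS5 signal (linear units on a log axis) on the Luc shRNA, G9a shRNA1 and G9a shRNA2 arrays, 1 array each, for the other pathway genes more than 2-fold from the control with both G9a shRNAs, with the median (11.96, dotted) and the 75th percentile (89.7, dashed) of all values. SDC2, NRP1 and PIK3R1 start from Luc shRNA signals of 1299.6, 292 and 285, while FGF5, FGF13, FLRT2 and FLRT3 have signals under the median on at least 1 array.

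The adaptors and first effectors of the receptors had a median of 0.00, with 1 of 17 kept genes lower with both shRNAs and 0 higher. PIK3R1, the regulatory subunit that brings PI3-kinase to activated receptors, gave 285 in Luc shRNA cells, 85.0 in G9a shRNA1 cells and 136 in G9a shRNA2 cells, or -1.74 and -1.06. Its other probe sets were lower with both as well, at -1.63 and -0.87 and at -2.32 and -1.58. The docking proteins GAB2 and GAB1 gave -1.19 and -0.25 and -0.61 and -0.30, whereas FRS3, a docking protein for FGF receptors, gave 0.78 and 0.17 and STAT3, a transcription factor, 0.15 and 0.34. FRS2, PIK3CA and CRK were not analysed here.

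Feedback inhibitors and transcriptional targets of FGF signaling gave 2 of 15 kept genes more than 2-fold higher with both shRNAs and 0 lower. On the higher side with both were 9 of the 15, against 2 on the lower side. Those 2 were SPRED1 (-0.30 and -0.42) and SPRED3 (-0.90 and -0.24), and SPRY1, SPRED2, IL17RD and EGR1 had opposite signs. The share of all kept genes on each side was not computed, and their median with G9a shRNA2 was 0.12 as deposited. For this list the median was 0.59 over the kept genes and 0.55 over 17 measured genes, the latter from 0.35 to 0.53 under the scaling and floor alternatives. SPRY4, a Sprouty inhibitor of RAS and ERK signaling that the study itself picked out from these samples, gave 57.4 in Luc shRNA cells, 149.8 in G9a shRNA1 cells and 151 in G9a shRNA2 cells, or 1.38 and 1.40. DUSP6, a phosphatase that inactivates ERK, gave 60.4, 182 and 135, or 1.59 and 1.16. After quantile normalization DUSP6 was at 1.58 and 0.995, the latter just short of 2-fold, while its other probe sets gave 2.19 and 2.23 and, from a control signal of 4.13, 4.20 and 3.93. On both genes the depleted lines stood above the control.

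Further targets on that list were past 2-fold with G9a shRNA1 and short of it with G9a shRNA2. ETV4, an ETS transcription factor downstream of FGF signaling, gave 43.7 in Luc shRNA cells, 104 in G9a shRNA1 cells and 81.8 in G9a shRNA2 cells, or 1.25 and 0.90. DUSP4, a nuclear phosphatase for ERK, gave 132, 291 and 237, or 1.14 and 0.84, and SPRY2, another Sprouty protein, gave 28.9, 60.9 and 50.0, or 1.07 and 0.79. Each lay above the control on both arrays and further above it with G9a shRNA1. FOS, an immediate early transcription factor, gave 0.70 and 0.54. These genes are named as targets from background knowledge, and the activity of the pathway was not measured on the arrays. On immunoblots the study itself reported lower ERK phosphorylation in G9a knockdown cells, so higher RNA of these genes is not read here as higher ERK activity.

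**Figure D3:**
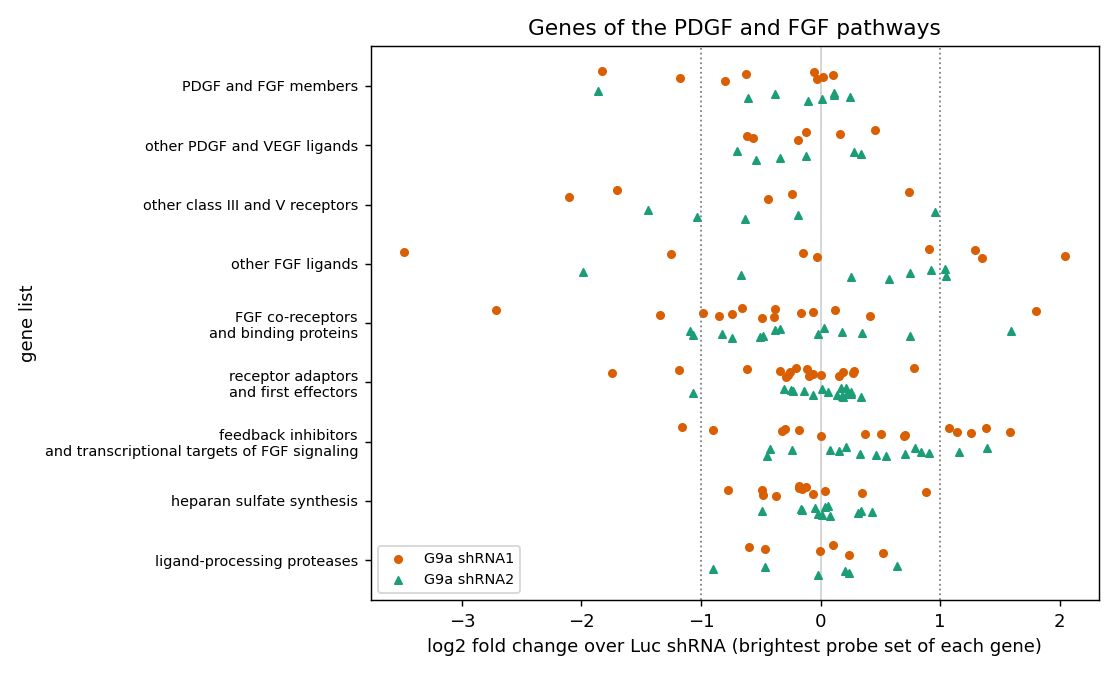
Log2 fold change over Luc shRNA (horizontal axis) for each kept gene, G9a shRNA1 as circles and G9a shRNA2 as triangles, among the PDGF and FGF genes and 8 pathway lists (vertical axis), 1 point per gene and shRNA at the brightest probe set, with dotted lines at 2-fold. The feedback inhibitors and targets lie mostly to the right (median of the plotted genes 0.59), the related receptors mostly to the left (-0.53), and the adaptors around 0 (0.00).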

How the data were processed

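RNA of SKOV-3 cells with G9a shRNA1, G9a shRNA2 or Luc shRNA was measured on 1 array each. The methods name Affymetrix Human Genome U133 Plus 2.0 arrays, and the deposited table holds 54675 probe sets. The probe set intensity values were made by the authors with MAS5, per the labels, on a linear scale; its settings and version are not given in the sources used here, and no value was at or under 0. Each G9a shRNA signal, with no further scaling, was divided by the Luc shRNA signal and put on the log2 scale. The filter kept probe sets with at least 1 signal at or over the median of all values (30446 probe sets and 13192 genes). Array annotation, with names updated by Entrez identifier, gave 1 symbol to 41097 probe sets, several to 1801 and none to 11777, and 54 probe sets had no match in the gene table. The probe set of highest mean log2 signal stands for its gene.

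No test was run, since each shRNA had 1 array and the genes were chosen on these values. The genes and lists were chosen with earlier results of these data known. Named are EHMT2, every PDGF and FGF gene, list genes past 2-fold with both shRNAs and up to 4 others per list furthest from 0, and the 3 genes nearest to PDGFRL by Euclidean distance. For the feedback inhibitors and targets, the kept genes not on the higher side with both shRNAs are named as well. PDGFB, PDGFD, FGF18, SULF1, SULF2 and HPSE are also named, as members of their lists. From the marker lists the genes past 2-fold and markers under the filter are named. Besides them CD24, CDH1, EPCAM, PECAM1, ITGAM and CD79A are named, and the kept fibroblast and pericyte markers. Promoter windows came from RefSeq for GRCh38.p14, and none is shown for PDGFRL, FGFR1 and PDGFC. Results were recomputed without the filter, with it at the 75th percentile, with the median as a floor for lower values, after quantile normalization or median centring, with means over probe sets, and at thresholds of 1.5-fold and 3-fold. Scripts were tested on simulated data and run in Python 3.11.15, using pandas 2.3.3, numpy 2.4.6, matplotlib 3.10.9 and scipy 1.17.1.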

Additional observations from a re-analysis of the deposited data

Results flagged for a closer look

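FGFR2 at probe set 203639_s_at lay below the control with G9a shRNA1 (log2 fold change -0.83) and above it with G9a shRNA2 (0.48), a difference of -1.31 on the log2 scale. It was listed because the 2 shRNAs lay on opposite sides of the control and more than 2-fold apart, and the difference was not tested. Its highest signal was 25.1, between the median and the 75th percentile, where 14.1% of probe sets differed by more than 2-fold between both G9a shRNA arrays.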

How the results depend on the processing

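No paired analysis was possible because each condition had 1 array and no replicate number. PDGFRL was the gene more than 2-fold lower with both shRNAs under every alternative run. The count of such genes was 2 with the mean of the kept probe sets of a gene (PDGFRL and FGFR4) and 2 at a 1.5-fold threshold (PDGFRL and FGFR2), and 1 otherwise. FGFR4 was counted through 1554962_a_at alone, at -2.57 and -2.51, whose G9a shRNA signals were under the median. That probe set was at -0.74 and -0.74 with the floor, and the other kept FGFR4 probe sets were short of 2-fold. The count of genes higher with both was 1 without a filter (PDGFRA, whose signals are all under the median) and 0 otherwise. The median over the genes, 0.012 as reported, was -0.48 over the 6 genes past the 75th percentile, -0.0038 with the floor, -0.071 after median centring, -0.065 after quantile normalization, -0.15 with the mean of kept probe sets over 8 genes and 0.043 with the mean of all probe sets. Of 54 mean log2 fold changes of single genes over 7 alternatives, 40 moved by less than that gene's own SD between its 2 values, 1 per shRNA, and 14 by more. For FGF2, PDGFRL and FGFR3, whose 2 values nearly coincide, that takes less than 0.1. The 40 include every value without the filter, with it at the 75th percentile and with the floor. Those values could not move, because the brightest probe sets of the kept genes were over the median on all 3 arrays. The 40 therefore overstate the stability. Among the 54, the sign changed in 5, PDGFA at -0.05 after median centring and at -0.04 under 3 others, and FGFR3 at 0.69 with the mean of all probe sets, which takes in a probe set under the median. Limits are set by signal over background and by the single array per condition.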

Other observations

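Heparan sulfate chains, which FGF ligands need to bind their receptors with full strength, are built, sulfated and later trimmed by enzymes. The list of these also holds SULF1, SULF2 and HPSE, which act on finished chains. Of 14 measured genes 12 were kept, and 0 were more than 2-fold from the control with both shRNAs in either direction. The median of the list was -0.05. HS2ST1, which adds a sulfate that FGF2 binding needs, gave 199 in Luc shRNA cells, 116 in G9a shRNA1 cells and 141 in G9a shRNA2 cells, or -0.77 and -0.49. NDST1, which starts sulfation of the chain, gave -0.49 and -0.16. HS3ST1 and HS3ST3A1, which add a rarer sulfate, gave 0.88 and 0.43 and 0.35 and 0.31.

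Proteases that process PDGF and related ligands also gave 0 genes past 2-fold with both shRNAs in either direction, with 6 of 7 kept and a median of 0.11, or 0.02 after median centring. PCSK5, a proprotein convertase, gave 1259 in Luc shRNA cells, 833 in G9a shRNA1 cells and 910.1 in G9a shRNA2 cells, or -0.60 and -0.47. PCSK6, a related convertase, gave -0.47 and -0.90 from signals close to the median. FURIN, the best known convertase, gave 0.11 and 0.64, and PLAT, the tissue plasminogen activator, which cuts PDGFC, gave 0.52 and 0.23.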
